A study of Mus musculus with 16 samples.

Results

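The data described here are the AMPK-KO arm of a differentiation time course in C2C12 cells: the 2 libraries at day 8 (d8) against the 2 libraries at day 0 (d0), chosen by their labels. They are 4 of the 16 RNA-seq libraries of the series, and 14329 of the 49585 genes in their count table passed a filter on low counts and were tested. C2C12 is a line of mouse myoblasts, which fuse into myotubes in low serum. In the AMPK-KO cells both catalytic subunits of the kinase, AMPKα1 (*Prkaa1*) and AMPKα2 (*Prkaa2*), had been disrupted with CRISPR/Cas9 and drug-selected clones were picked. Cells at d0 were myoblasts grown in 10% fetal bovine serum, and cells at d8 had been moved at confluence to 2% equine serum. The WT cells of the same line, with 2 libraries at d0 and 2 at d8 under the same media, served for comparison. The study asked whether AMPK is needed for myogenic differentiation. The study describes the RNA-seq tracks it shows as coming from independent AMPK-KO lines, and the labels do not say which line each library came from, so the difference between replicates may hold that between lines.

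Skeletal myoblasts leave the cell cycle, switch on the transcription factors MyoD and myogenin, fuse, and then build the contractile apparatus. AMPK is a kinase that senses low cellular energy and has an α catalytic, a β and a γ subunit. Type I interferons are secreted by cells that detect foreign or misplaced nucleic acid and switch on a broad set of antiviral genes in the cells that bind them.

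Pairs of values are given in the order replicate 1, replicate 2. At d0 the AMPK-KO depth was 19319119 and 20903834 counts per library, and at d8 it was 24663079 and 20925176. Mitochondrial genes took 1.16% and 0.666% of the counts at d0 and 0.977% and 0.683% at d8. Levels are given as raw counts, as CPM, the share of a library's counts after TMM normalization, or as TPM, which also divides by exon length. Fold changes are log2 values from edgeR's quasi-likelihood test with a standard error (SE), and a gene was called where its Benjamini-Hochberg adjusted p over all 14329 genes was under 0.05. RNA was taken from whole cultures, in which fewer cells of a type and less RNA per cell cannot be told apart.

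The 2 d8 libraries stood apart from each other. Of the 12544 genes with at least 20 counts in either of them, 217 (1.73%) were at least 4-fold higher in replicate 1 and 206 (1.64%) at least 4-fold higher in replicate 2. Together this was 3.37% of genes, against 1.69% between the d0 replicates of AMPK-KO cells, 1.17% between the WT d8 replicates and 3.46% between the WT d0 replicates. The genes higher in replicate 1 included 28 of the 30 interferon-stimulated genes with enough counts, and those higher in replicate 2 included 16 of 27 genes of the thin filament, Z-disc and titin and 9 of 12 sarcomeric myosins. For this reason the genes described in full below are given with their counts in each d8 library.

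**Figure D1:**
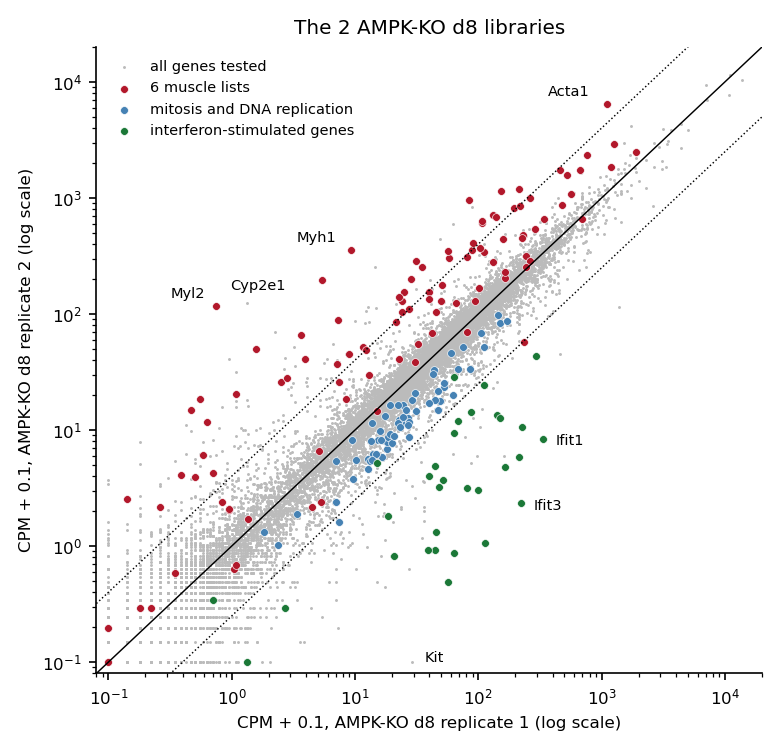
CPM plus 0.1 of each of the 14329 genes in AMPK-KO d8 replicate 1 (x axis) and replicate 2 (y axis), both on log scales. The solid line marks equal values and the dotted lines a 4-fold difference; muscle genes (red) lie mostly above the line, mitosis and DNA replication genes (blue) below it, and 28 interferon-stimulated genes (green) beyond the lower dotted line, as does *Kit*.

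The edited genes were read first. *Prkaa1* went from 1522 and 1669 to 2043 and 1698 counts in AMPK-KO cells, with a log2 fold change of 0.07 (SE 0.125, edgeR adjusted p = 0.740). *Prkaa2* went from 4 and 9 to 31 and 17 counts, with no overlap between the days and a change that was not called (log2 1.70, SE 0.516, edgeR adjusted p = 0.0833). In WT cells *Prkaa2* went from 35 and 33 to 113 and 216 counts. Counts over a whole gene do not show the edit itself, so these values do not check the genotype. Of the 12 AMPK subunits and upstream kinases tested 1 rose and none fell (8.33%, against 4.81% of all genes), and none did with d8 replicate 1 alone. *Prkag3*, which encodes a γ subunit found in fast muscle, rose from 40 and 18 to 134 and 781 counts (log2 3.89, SE 0.943, edgeR adjusted p = 0.0468). The *Prkag3* call was lost with the replicate number as a block in the model.

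Over all genes, 689 (4.81%) rose and 709 (4.95%) fell between d0 and d8 in AMPK-KO cells. None of these 1398 genes overlapped in CPM between the days, which also held for 59.1% of all genes tested. The WT time course gave 828 higher (5.78%) and 943 lower (6.58%). Of the genes that rose in AMPK-KO cells 376 also rose in WT cells, 54.6% of the AMPK-KO list and 45.4% of the WT list. Of those that fell, 541 also fell in WT cells, 76.3% and 57.4% of the respective lists. Across both lists the sign of the WT change was the same for 674 of 689 and 700 of 709 genes. The number called depended on every library: with 1 AMPK-KO d0 library left out it was 0 or 1, with 1 WT d8 library left out 117 or 127 rose and 49 or 69 fell, and with d8 replicate 1 alone 278 rose and 93 fell against 520 and 409 with replicate 2 alone. With only the 4 AMPK-KO libraries in the model, 376 rose and 412 fell.

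The myogenic transcription factors and fusion genes went up from a very low start. Of the 13 myogenic regulators tested, 6 rose (46.2%, against 4.81% of all genes) and none fell, with a median log2 change of 1.15. Relative to d0 the list median was 1.03 in d8 replicate 1 and 1.27 in replicate 2. *Myod1*, the factor that commits cells to the muscle lineage, had 151 and 291 counts at d0 and 1425 and 2379 at d8 (log2 3.01, SE 0.444, edgeR adjusted p = 0.0217). Its WT counts were 1606 and 2450 at d0 and 2612 and 3508 at d8, so the AMPK-KO cultures reached at d8 about the count that WT cultures already had at d0. *Myog*, which encodes myogenin and starts terminal differentiation, rose from 12 and 12 to 1567 and 3943 counts (log2 7.74, SE 0.721, edgeR adjusted p = 0.0179). In WT cells *Myog* went from 612 and 361 to 4621 and 9150 counts. The d0 and d8 libraries did not overlap for either gene, and d8 replicate 2 was the higher of the pair for both.

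*Mymk* and *Mymx*, the membrane proteins myomaker and myomixer that fuse myoblasts, followed the same course. *Mymk* went from 14 and 4 to 2136 and 8195 counts (log2 9.06, SE 1.09, edgeR adjusted p = 0.0191), and *Mymx* from 2 and 3 to 312 and 857 counts (log2 7.71, SE 0.762, edgeR adjusted p = 0.0179). *Mef2a* also rose. Factors of the early lineage are given next. *Myf5* held 1275 and 1106 counts at d0 and 1130 and 1177 at d8 (log2 −0.20, edgeR adjusted p = 0.563). *Pax7*, the satellite cell factor, was at 0 and 1 counts at d0 and 0 and 2 at d8, where the 4 WT libraries held 138 to 177 counts, and *Myf6* did not pass the filter. Of 16 genes of fusion and membrane repair 3 rose (18.8%, against 4.81% of all genes), *Mymk*, *Mymx* and *Trim72*. *Anxa2* fell from 23002 and 21436 to 15060 and 9440 counts (log2 −1.04), and the list median was −0.04. *Trim72*, a muscle protein of membrane repair, went from 2 and 0 to 316 and 1760 counts (edgeR adjusted p = 0.0217).

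**Figure D2:**
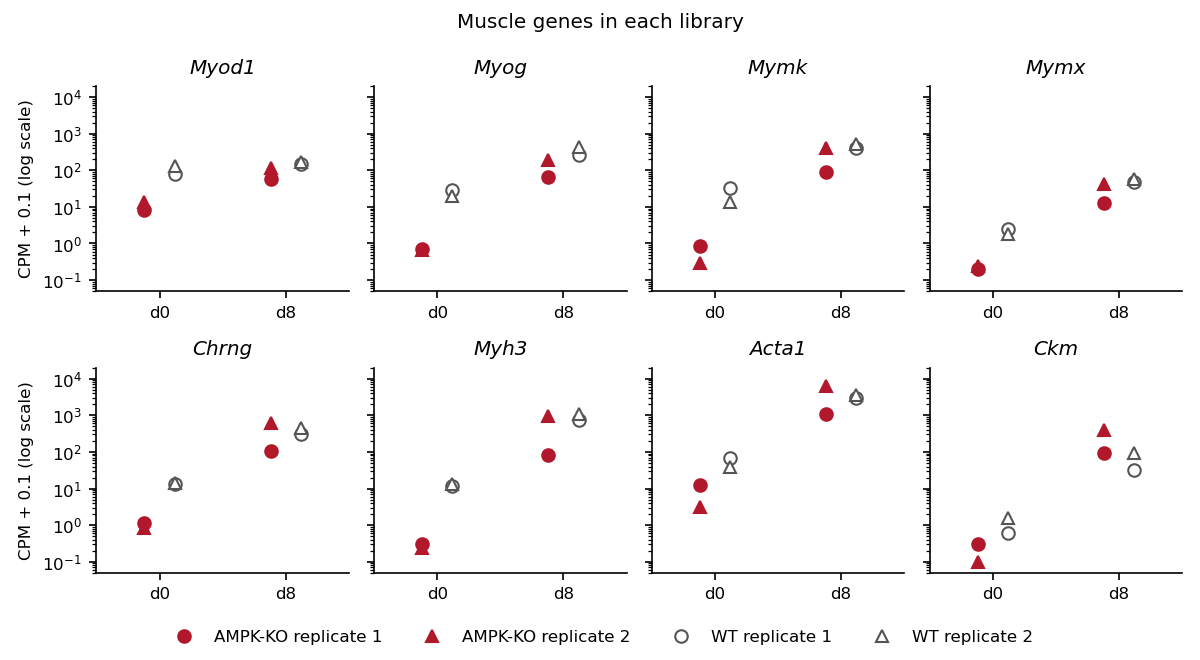
CPM plus 0.1 (log scale) of 8 muscle genes at d0 and d8, with one point per library (red, AMPK-KO; open, WT; circles, replicate 1; triangles, replicate 2). In AMPK-KO cells all 8 genes lie higher in both d8 libraries than in both d0 libraries, and replicate 2 is the higher d8 library for each.

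*Chrng* and *Ckm* serve as examples of promoters of muscle genes. *Chrng* encodes the fetal γ subunit of the muscle acetylcholine receptor and *Ckm* the muscle creatine kinase that buffers ATP. MyoD and myogenin bind E-boxes, of which CAGCTG is one form, and the 250 bases upstream of the RefSeq start (GRCm38.p6) of both genes are shown with each CAGCTG in capitals. The *Chrng* window is chr1:87205561-87205810 and the *Ckm* window chr7:19410844-19411093, both on the plus strand.
Chrng: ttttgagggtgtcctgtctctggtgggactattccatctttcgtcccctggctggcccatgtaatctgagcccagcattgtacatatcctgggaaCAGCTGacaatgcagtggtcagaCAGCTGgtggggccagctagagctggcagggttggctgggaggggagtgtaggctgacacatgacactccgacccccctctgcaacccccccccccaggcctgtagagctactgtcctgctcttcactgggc
Ckm: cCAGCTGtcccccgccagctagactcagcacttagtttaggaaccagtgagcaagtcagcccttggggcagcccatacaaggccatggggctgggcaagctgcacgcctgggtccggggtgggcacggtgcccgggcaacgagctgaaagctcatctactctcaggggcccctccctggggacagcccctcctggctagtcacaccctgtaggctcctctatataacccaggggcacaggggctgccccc
CAGCTG reads the same on both strands. It was found in 23 of the 65 promoters matched for 93 muscle genes (35.4%) and in 12.8% of all 27025 promoters of this length. The 93 were those of the sarcomeric myosin, troponin, thin filament, excitation-contraction coupling and acetylcholine receptor lists. *Chrng* is one of them, and *Ckm*, of the muscle energy list, is not. A match is a description of the letters and not evidence of binding.

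*Chrng* rose from 20 and 16 to 2649 and 13011 counts (log2 8.69, SE 0.988, edgeR adjusted p = 0.0179). *Chrnd*, the δ subunit, rose from 317 and 599 to 2544 and 7662 counts (log2 3.41, edgeR adjusted p = 0.0421), and *Musk*, the receptor kinase that organizes the synapse, from 128 and 301 to 797 and 1140 counts (log2 2.08, edgeR adjusted p = 0.0263). *Chrna1* was already at 4379 and 8933 counts at d0, and its change to 13730 and 22154 counts was not called (log2 1.34, edgeR adjusted p = 0.0837). With *Rapsn*, 4 of 13 genes of the receptor and the neuromuscular junction rose (30.8%, against 4.81% of all genes) and none fell. With d8 replicate 1 alone 2 rose, and with replicate 2 alone 4.

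The contractile apparatus rose as a group. Of 13 sarcomeric myosins 8 rose, of 10 troponins and tropomyosins 8, of 28 genes of the thin filament, Z-disc and titin 19, and of 23 genes of excitation-contraction coupling 15. These shares of 61.5%, 80%, 67.9% and 65.2% stood against 4.81% of all genes, and none of the genes on these lists fell. *Myh2*, *Myh6*, *Myh7*, *Myh8*, *Myh13*, *Myl2*, *Actn2*, *Csrp3*, *Smpx* and *Cacng6* were absent at d0 in AMPK-KO cells. They passed the filter only through other libraries and could not have fallen. Of these, *Myh7*, *Csrp3* and *Smpx* were called. Calls with such genes left out are given under the dependence on processing. With d8 replicate 1 alone 6, 5, 18 and 10 rose, and with replicate 2 alone 12, 7, 23 and 17. The median log2 changes were 8.45, 5.54, 5.99 and 3.90, or 7.47 for the myosins and 5.77 for the thin filament list with genes absent at d0 set to their lower bounds, against 0.02 for all genes. The median WT changes of the same lists were 7.03, 4.29, 4.85 and 2.38.

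*Myh3*, the embryonic myosin heavy chain, had 4 and 3 counts at d0 and 2051 and 19614 at d8 (log2 11.50, SE 1.49, edgeR adjusted p = 0.0209). *Myh1*, a fast adult heavy chain, went from 4 and 2 to 224 and 7314 counts (log2 10.20, SE 2.07, edgeR adjusted p = 0.0315). *Myh7*, the slow heavy chain, was at 0 in both d0 libraries and at 87 and 1347 counts at d8. With the d0 group set at 3 counts per library, it was at least 23.88-fold higher in replicate 1 and at least 440.3-fold in replicate 2. Both d8 libraries lay above both d0 libraries for all of these heavy chains, but they differed from each other by more than for most genes. *Myl2*, the slow regulatory light chain, had 0 and 0 counts at d0 and 16 and 2400 at d8, which is at least 4.39-fold higher in replicate 1 and at least 785-fold higher in replicate 2, and it was not called (edgeR adjusted p = 0.114). *Myl1* and *Mylpf*, light chains of fast fibres, were more even, with 16268 and 36066 and with 11179 and 35977 counts at d8 (log2 7.67 and 8.34, edgeR adjusted p = 0.0179 for each).

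Skeletal α-actin, *Acta1*, rose from 240 and 63 to 26952 and 132288 counts (log2 8.93, SE 1.21, edgeR adjusted p = 0.0209). *Actc1*, the cardiac actin that embryonic muscle also uses, went from 3 and 2 to 131 and 4028 counts (log2 9.60, edgeR adjusted p = 0.0334). The Z-disc proteins *Csrp3* and *Smpx* were at 0 at d0 and at 94 and 847, and 24 and 423 counts at d8. *Csrp3* was at least 25.8-fold higher in d8 replicate 1 and at least 276.8-fold in replicate 2. For *Smpx* these lower bounds were 6.587-fold and 138.3-fold. *Des*, the intermediate filament desmin, was abundant from the start, with 17070 and 24382 counts at d0 and 31015 and 60463 at d8, and was not called (log2 1.05, edgeR adjusted p = 0.148). *Tpm1* was likewise high at both days (30138 and 33912 against 46744 and 50756 counts) and not called (edgeR adjusted p = 0.177).

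Among the calcium handling genes, *Cacna1s*, the voltage sensor of the T-tubule, rose from 1 and 0 to 552 and 2885 counts, a ratio of 3086 with a 95% counting interval of 554 to 121900. *Atp2a1*, the fast-muscle calcium pump SERCA1, rose from 28 and 32 to 3440 and 14111 counts (log2 8.12, SE 0.915, edgeR adjusted p = 0.0179). The broadly expressed pump gene *Atp2a2* went from 8578 and 8867 to 18710 and 48346 counts and was not called (edgeR adjusted p = 0.0520). *Ckm* rose from 4 and 0 to 2237 and 8386 counts (log2 11.21, SE 1.40, edgeR adjusted p = 0.0198), and *Mb*, the oxygen store myoglobin, from 5 and 0 to 1383 and 7179 counts (log2 10.60, edgeR adjusted p = 0.0209). Summed over the sarcomeric myosins, the TPM was 27.2 and 16.8 at d0 and 2783 and 9999 at d8, against 6353 and 10210 in the WT d8 libraries.

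Of the 17 genes of the dystrophin-glycoprotein complex, which anchors the muscle membrane to the matrix, 7 rose (41.2%, against 4.81% of all genes) and none fell, with a median of 0.88. With d8 replicate 1 alone 3 rose, and with replicate 2 alone 6. *Dag1*, dystroglycan, rose from 5780 and 5733 to 25649 and 20150 counts (log2 1.83, edgeR adjusted p = 0.0207). The median log2 difference of d8 replicate 1 from replicate 2 was −0.19 in this group, against −3.51 for the sarcomeric myosins and −2.40 for the thin filament list.

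**Figure D3:**
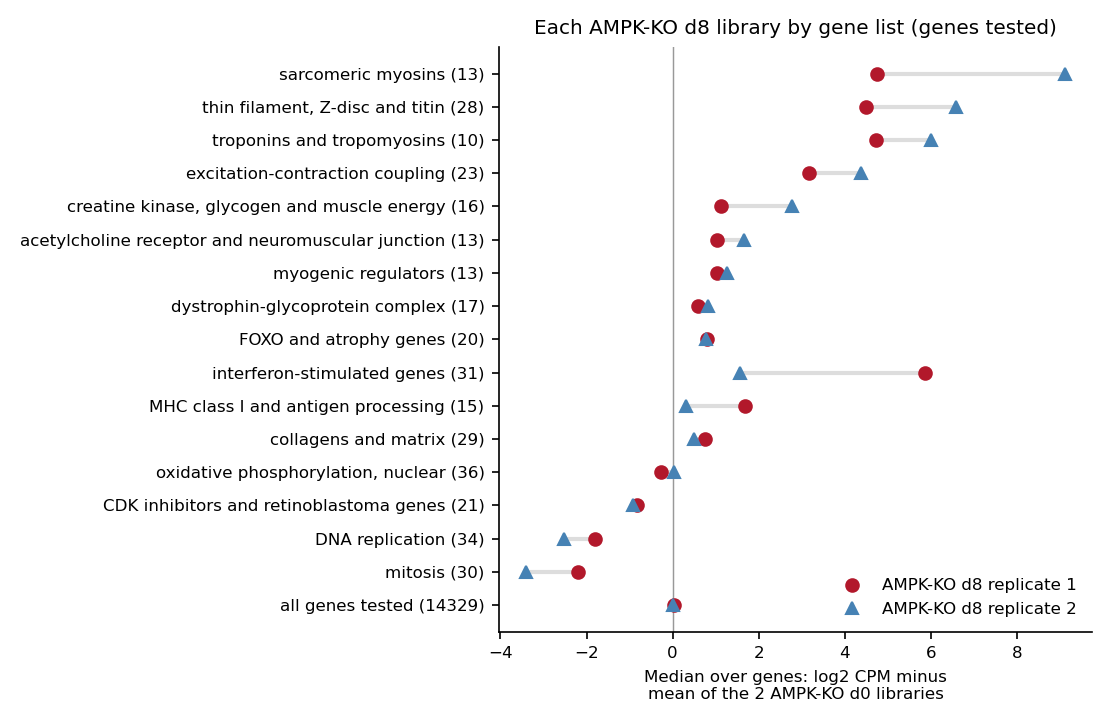
Median over the tested genes of each list of the log2 CPM in d8 replicate 1 (red circles) and d8 replicate 2 (blue triangles), each minus the mean of the 2 AMPK-KO d0 libraries; the number of genes is in parentheses. Replicate 2 lies further from 0 for the contractile and cell cycle lists (9.11 against 4.74 for sarcomeric myosins), and replicate 1 for the interferon-stimulated genes (5.87 against 1.57).

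The cell cycle genes fell together. All 30 mitosis genes and 31 of 34 DNA replication genes fell and none rose, against 4.95% of all genes, with median log2 changes of −2.71 and −2.13. In WT cells 30 of 30 and 32 of 34 fell, with medians of −3.42 and −2.32. *Cdc20*, which activates the complex that ends mitosis, had 2241 and 2888 counts at d0 and 552 and 247 at d8 (log2 −2.87, SE 0.376, edgeR adjusted p = 0.0209). *Top2a*, the topoisomerase of dividing cells, fell from 10686 and 11827 to 2710 and 1067 counts (log2 −2.77, SE 0.438, edgeR adjusted p = 0.0218). *Mcm2*, a subunit of the replicative helicase, fell from 3611 and 3156 to 1046 and 629 counts (log2 −2.20, SE 0.256, edgeR adjusted p = 0.0179), and *Lig1*, the replicative DNA ligase, from 2122 and 1887 to 597 and 336 counts (log2 −2.29, edgeR adjusted p = 0.0179). No library of one day overlapped with the other day for these genes.

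Replicate 1 kept more of these transcripts than replicate 2 at d8. Relative to d0, the mitosis list had a median log2 value of −2.19 in replicate 1 and −3.41 in replicate 2, and the DNA replication list −1.81 and −2.52. With replicate 1 alone as the d8 group 14 of 30 mitosis genes and 7 of 34 replication genes fell, and with replicate 2 alone 30 and 30. The summed TPM of the mitosis list was 2498 and 2903 at d0 and 612 and 269 at d8.

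*Cdc20* carries a pair of CCAAT boxes, the sequence bound by NF-Y, in the 250 bases upstream of its RefSeq start (chr4:118437344-118437593, minus strand, GRCm38.p6). Its promoter is shown as the example of the mitosis list, with CCAAT in capitals.
Cdc20: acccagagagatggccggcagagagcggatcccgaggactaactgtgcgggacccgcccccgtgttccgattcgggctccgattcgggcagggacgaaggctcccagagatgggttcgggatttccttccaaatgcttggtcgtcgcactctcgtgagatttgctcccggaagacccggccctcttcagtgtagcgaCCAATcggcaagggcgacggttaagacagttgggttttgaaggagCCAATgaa
CCAAT on either strand was found in 20 of the 25 mitosis promoters matched (80%) and in 34.5% of all promoters. The letters TTTGAA, the core of the cell cycle homology region, were found in 32.0% and 16.3%.

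Among the CDK inhibitors, cyclins and retinoblastoma genes, 2 of 21 rose (9.52%, against 4.81% of all genes) and 9 fell (42.9%, against 4.95%). With d8 replicate 1 alone none fell, and with replicate 2 alone 7 did. *Cdkn1a*, the CDK inhibitor p21, rose from 3302 and 4036 to 11715 and 17687 counts (log2 1.89, SE 0.287, edgeR adjusted p = 0.0217), with a WT change of 1.88. *Ccnd3*, the D cyclin that muscle cells keep, was the other rise (log2 0.94). *Ccne1*, cyclin E1, fell from 1071 and 832 to 255 and 130 counts (log2 −2.50, edgeR adjusted p = 0.0217), and *Cdk6* from 2575 and 2166 to 1201 and 796 counts (log2 −1.43, edgeR adjusted p = 0.0215). Of the 9 DNA methylation enzymes tested 3 fell (33.3%, against 4.95% of all genes): *Uhrf1* and *Dnmt1*, which copy methylation onto new strands (log2 −2.65 and −1.40), and *Mbd4*. None of the 9 fell with replicate 1 alone, and 2 did with replicate 2 alone. *Tet1*, *Tet2* and *Tet3*, the dioxygenases that oxidize 5-methylcytosine, were not called. *Tet2* held 303 and 312 counts at d0 and 404 and 392 at d8 (log2 0.22, edgeR adjusted p = 0.635), *Tet1* 68 and 99 against 104 and 88 counts (log2 0.06, edgeR adjusted p = 0.926) and *Tet3* 568 and 795 against 1048 and 915 counts (log2 0.38, edgeR adjusted p = 0.200).

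Interferon-stimulated genes were high in 1 library, d8 replicate 1. *Ifit1*, whose product binds foreign RNA caps, had 7 and 17 counts at d0 and 8156 and 171 at d8. *Isg15*, a ubiquitin-like modifier, had 24 and 33 counts at d0 and 5220 and 119 at d8. In WT cells the same genes stayed at 9 to 23 and at 10 to 44 counts over the 4 libraries. Both promoters hold the core of the interferon-stimulated response element, GAAANNGAA, and are shown with that core in capitals on whichever strand it was found, where overlapping matches run together. The windows are chr19:34640639-34640888 on the plus strand for *Ifit1* and chr4:156200819-156201068 on the minus strand for *Isg15* (GRCm38.p6).
Ifit1: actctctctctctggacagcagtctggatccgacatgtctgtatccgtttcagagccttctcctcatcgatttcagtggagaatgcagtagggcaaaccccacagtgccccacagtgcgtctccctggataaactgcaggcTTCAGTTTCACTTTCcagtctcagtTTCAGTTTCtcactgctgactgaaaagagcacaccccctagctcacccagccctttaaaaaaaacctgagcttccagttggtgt
Isg15: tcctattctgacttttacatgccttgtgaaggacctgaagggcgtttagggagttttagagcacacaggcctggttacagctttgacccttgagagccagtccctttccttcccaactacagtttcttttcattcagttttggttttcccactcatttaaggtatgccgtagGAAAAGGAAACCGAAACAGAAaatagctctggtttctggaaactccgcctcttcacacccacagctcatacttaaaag
GAAANNGAA on either strand was found in 16 of the 26 promoters matched for the 38 genes of the list (61.5%), against 7.16% of all promoters.

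In the test over both d8 libraries, 7 of the 31 interferon-stimulated genes that passed the filter rose (22.6%, against 4.81% of all genes) and none fell. The median log2 change was 4.87 (4.84 with the genes absent at d0 at their bounds) against 0.47 in WT cells, where none was called. *Iigp1*, *Mx2* and *Rsad2*, absent at d0 in AMPK-KO cells, passed the filter only through other libraries and could not have fallen. *Ifit1* rose by 8.16 (SE 1.75, edgeR adjusted p = 0.0352) and *Isg15* by 6.28 (SE 1.56, edgeR adjusted p = 0.0490). *Gbp2*, an interferon-induced GTPase, rose from 16 and 23 to 1080 and 98 counts (log2 4.66, edgeR adjusted p = 0.0344), and *Xaf1* from 13 and 14 to 1179 and 65 counts (log2 5.25, edgeR adjusted p = 0.0391). The other 3 that rose were *Ifi27l2a*, *Igtp* and *Irf7*. With the replicate number as a block in the model, the calls of *Isg15*, *Ifi27l2a*, *Igtp* and *Irf7* were lost. With only the 4 AMPK-KO libraries in the model, no gene of the list was called. *Ifit3*, with 12 and 4 counts at d0 and 5414 and 46 at d8, was not called (edgeR adjusted p = 0.0609), and its near-identical copy *Ifit3b* makes the split of reads between them uncertain.

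The size of the rise differed between the libraries. Against the d0 mean the list had a median log2 value of 5.87 in replicate 1 and 1.57 in replicate 2, and replicate 1 stood a median of 3.92 above replicate 2. With replicate 1 alone 28 of the 31 genes rose, and with replicate 2 alone 3 did (*Gbp2*, *Ifit1* and *Xaf1*). Summed over the list, the TPM was 142 and 167 at d0 and 5655 and 293 at d8, and *Ifi27l2a* was the most abundant gene of the list in d8 replicate 1 (TPM 1268). *Mx2* and *Iigp1*, antiviral GTPases, were at 0 at d0 in both libraries, at 955 and 1098 counts in d8 replicate 1 and at 17 each in d8 replicate 2. That is at least 262-fold and at least 301-fold higher in replicate 1, and at least 5.56-fold higher for each in replicate 2.

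**Figure D4:**
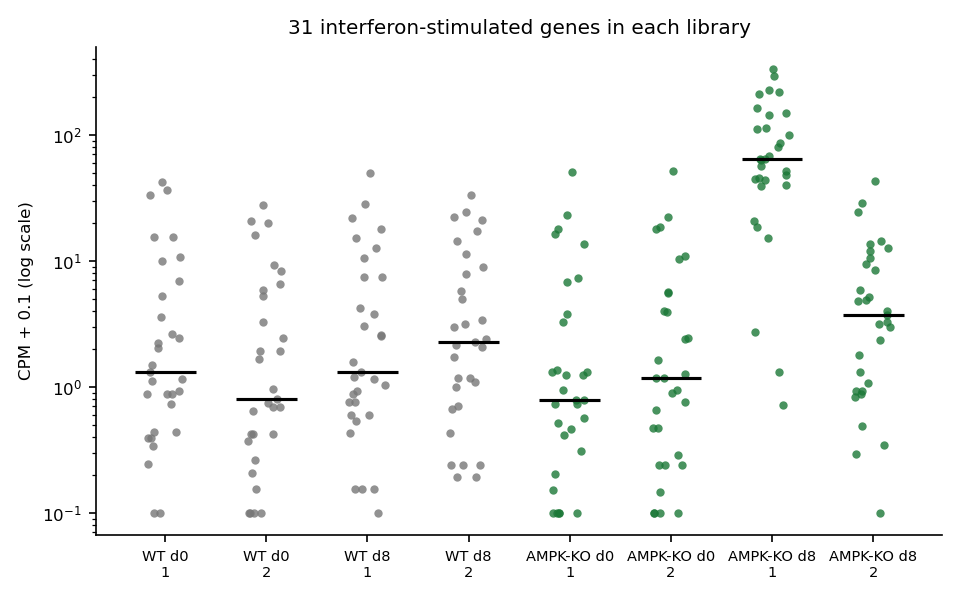
CPM plus 0.1 (log scale) of the 31 tested interferon-stimulated genes in each of the 8 libraries, with one point per gene and a bar at the median (grey, WT; green, AMPK-KO; numbers under the labels are replicates). AMPK-KO d8 replicate 1 lies above all other libraries, and d8 replicate 2 lies nearer to them.

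None of 18 interferon receptors and nucleic acid sensors was called over both d8 libraries, with a median of 0.25. With replicate 1 alone 1 rose (median 0.29), and with replicate 2 alone none did (median 0.12). *Eif2ak2*, the RNA-activated kinase PKR, had 946 and 1052 counts at d0 and 4585 and 852 at d8. *Tlr3*, a receptor for double-stranded RNA, had 85 and 48 counts at d0 and 355 and 65 at d8, so for both genes replicate 1 alone stood above the d0 libraries. Among the interferon-stimulated genes above, *Ddx58*, the RNA sensor RIG-I, had 139 and 218 counts at d0 and 2126 and 295 at d8 and was not called (edgeR adjusted p = 0.0816). The receptor gene *Ifnar1* held 1724 and 1951 counts at d0 and 2704 and 2124 at d8 (log2 0.23, edgeR adjusted p = 0.281). *Ifnb1*, interferon β, had 9 counts in AMPK-KO d8 replicate 1 and 0 in each of the other 7 libraries, and *Ifna4* had 4 counts there and 0 elsewhere; neither passed the filter. *Ifng* had 6 and 14 counts at d8, so it was not higher in replicate 1. Of 15 genes of MHC class I and antigen processing 2 rose (13.3%, against 4.81% of all genes). *B2m*, the light chain of MHC class I, went from 3833 and 4110 to 19872 and 7096 counts (log2 1.56, edgeR adjusted p = 0.0474), and *H2-T23* from 574 and 591 to 5244 and 1456 counts (log2 2.30, edgeR adjusted p = 0.0448). With replicate 1 alone 7 of the 15 rose, and with replicate 2 alone none did. Of the 10 leukocyte markers 4 were tested and none was called, and *Ptprc*, *Adgre1*, *Itgam* and *Tyrobp*, which define leukocytes and macrophages, were at 0 in all 4 AMPK-KO libraries. The summed TPM of that list was 37.9 and 48.5 at d0 and 42.5 and 55.1 at d8, most of it from *Cd14*.

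A gene with no counts in d8 replicate 2 was *Kit* (ENSMUSG00000005672.12, chr5:75574916-75656722, plus strand, GRCm38), which encodes the receptor of stem cell factor. *Kit* had 528 and 597 counts at d0, 715 counts in d8 replicate 1 and 0 in d8 replicate 2, while the 4 WT libraries held 485 to 569 counts. Replicate 1 was at least 200.1-fold above replicate 2 with the latter set at 3 counts. Among tested protein-coding genes within 2500 kb of the *Kit* start, 25 others had at least 20 counts in an AMPK-KO library. These differed between the d8 libraries by −0.78 to 1.01 on the log2 scale. *Pdgfra*, 423 kb away on the lower side, had 878 and 693 counts at d8, and *Clock*, 635 kb away on the upper side, had 2200 and 1959. The other genes with at least 50 counts in 3 AMPK-KO libraries and no more than 3 in the remaining one were *Slc2a3*, a glucose transporter (77, 81, 85 and 1 counts), and *Selp*, P-selectin (74, 68, 54 and 3 counts). Both were low in the same library, d8 replicate 2, and no gene met this in the other 3 libraries. *Selp* was also low in WT cells at d8, at 9 and 5 counts, while *Slc2a3* held 118 and 115.

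**Figure D5:**
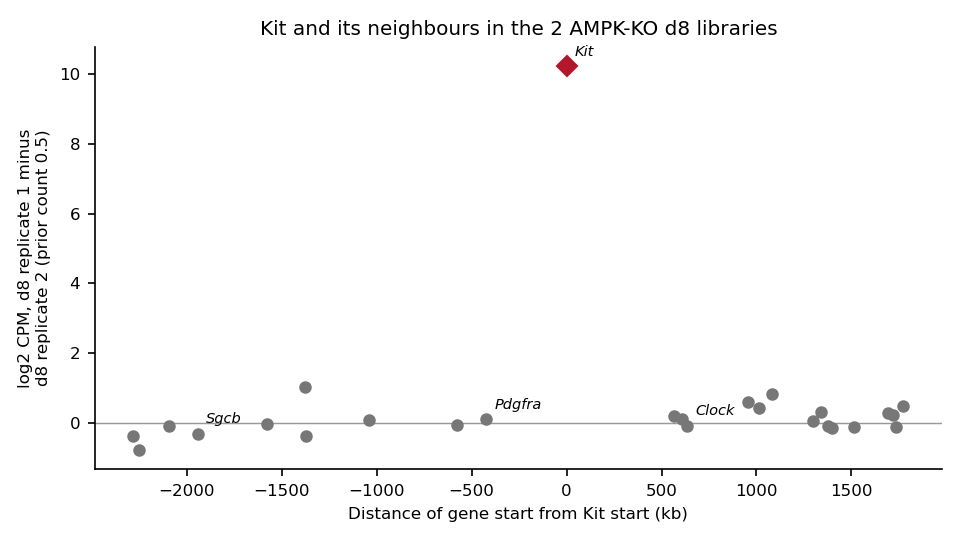
Log2 CPM of d8 replicate 1 minus d8 replicate 2 in AMPK-KO cells, by distance of the gene start from the *Kit* start in kb. Shown are *Kit* (red diamond) and its tested protein-coding neighbours with at least 20 counts (grey). *Kit* stands at 10.2, a value that depends on the prior count because replicate 2 is at 0, and the 25 neighbours lie between −0.78 and 1.01.

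In the IGF axis, the growth factor binding protein *Igfbp5* rose from 28197 and 43501 to 269395 and 238317 counts (log2 2.69, SE 0.252, edgeR adjusted p = 0.0179). It was the most abundant of all genes in d8 replicate 2, with 1.14% of the counts. In WT cells *Igfbp5* had 45128 and 32034 counts at d0 and 57624 and 65044 at d8 (log2 0.67, edgeR adjusted p = 0.108). The imprinted pair *H19* and *Igf2* also rose, *H19* from 33557 and 49558 to 172054 and 195460 counts (log2 2.02, edgeR adjusted p = 0.0209) and *Igf2* from 101 and 9 to 3673 and 2856 counts (log2 5.68, edgeR adjusted p = 0.0227). These were the 3 called genes of the 16 of the IGF axis (18.8%, against 4.81% of all genes), and for each the d8 libraries lay close together. In WT cells 4 of the 16 rose and 1 fell.

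Of the 20 FOXO and atrophy genes 7 rose (35%, against 4.81% of all genes) and none fell, with a median of 0.75. With either d8 library alone 5 rose. *Fbxo32*, the ubiquitin ligase atrogin-1, rose from 812 and 1177 to 4920 and 4127 counts (log2 2.04, SE 0.209, edgeR adjusted p = 0.0179). *Trim63*, the ligase MuRF1, rose from 2 and 4 to 158 and 397 counts (log2 6.39, edgeR adjusted p = 0.0191), and *Foxo6* from 49 and 45 to 446 and 394 counts (edgeR adjusted p = 0.0179). *Gadd45a*, a growth arrest gene, rose from 617 and 932 to 5684 and 10796 counts (log2 3.32, edgeR adjusted p = 0.0223). The list stood at 0.81 in d8 replicate 1 and 0.79 in replicate 2 relative to d0.

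Of 29 collagen and matrix genes 4 rose (13.8%, against 4.81% of all genes) and none fell. With either d8 library alone 2 rose, and with replicate 2 alone 1 fell. *Dcn*, the proteoglycan decorin, rose from 222 and 201 to 5895 and 8233 counts (log2 4.93, SE 0.606, edgeR adjusted p = 0.0193), *Lama2*, the laminin chain of muscle basement membrane, from 1221 and 1265 to 4463 and 3243 counts (log2 1.47, edgeR adjusted p = 0.0179) and *Fn1*, fibronectin, from 102111 and 87765 to 338585 and 211865 counts (log2 1.35, edgeR adjusted p = 0.0284). *Loxl1* was the fourth. *Sparc*, an abundant collagen-binding matrix protein, had a TPM of 2035 and 2468 at d0 and 3474 and 3593 at d8 and was not called (log2 0.60, edgeR adjusted p = 0.260). *Tceal7*, a muscle transcript outside the lists, was at 0 in both d0 libraries and at 204 and 927 counts at d8, and was called (edgeR adjusted p = 0.0217). It was at least 55.99-fold higher in d8 replicate 1 and at least 303-fold in replicate 2. None of 13 smooth muscle and myofibroblast genes and none of 18 matrix proteases and inhibitors was called. Of all genes 4.81% rose and 4.95% fell. The medians of these lists were 0.41 and 1.04, and 7 and 13 of their genes had a log2 change above 0.

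Of 16 genes of creatine kinase, glycogen and muscle energy 5 rose (31.3%, against 4.81% of all genes) and none fell, with a median of 1.76. They were *Ckm* and *Mb*, whose counts are given above, *Pgam2*, *Pygm* and *Cox8b*. *Pygm*, the glycogen phosphorylase of muscle, rose from 7 and 3 to 172 and 756 counts (log2 6.42, SE 0.993, edgeR adjusted p = 0.0217). *Pgam2*, the muscle phosphoglycerate mutase, rose from 20 and 36 to 299 and 1005 counts (log2 4.47, edgeR adjusted p = 0.0227). With replicate 1 alone 4 of the 16 rose and with replicate 2 alone 7 did. None of the 36 nuclear genes of oxidative phosphorylation, the 16 regulators of mitochondrial biogenesis and the 11 mitochondrially encoded mRNAs was called, with medians of −0.10, 0.02 and −0.09. Of 22 glycolysis genes 1 rose, again *Pgam2*, and none fell, a share of 4.55% that is near that of all genes. Of the 18 antioxidant genes 1 rose, *Gpx1* (5.56%, also near it), and 4 fell (22.2%, against 4.95% of all genes). With d8 replicate 1 alone 1 of the 18 fell, and with replicate 2 alone 2. Besides *G6pdx* and *Gclm*, the falls were of *Nqo1*, a quinone reductase, from 1241 and 568 to 220 and 121 counts (log2 −2.62, edgeR adjusted p = 0.0250) and *Gsr*, glutathione reductase, from 1564 and 1770 to 765 and 640 counts (log2 −1.40, edgeR adjusted p = 0.0209). *Phgdh*, the first enzyme of serine synthesis, fell from 15029 and 9893 to 4272 and 2416 counts (log2 −2.10, edgeR adjusted p = 0.0396).

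Of the 10 largest rises, that of *Ctrb1*, the pancreatic protease precursor chymotrypsinogen B, was of a gene outside the muscle program. It rose from 1 and 0 to 360 and 2319 counts, a ratio of 2406 with a 95% counting interval of 431 to 95060. In WT cells it went from 23 and 41 to 578 and 866 counts. *Mybpc1*, the slow myosin-binding protein C, rose from 1 and 0 to 175 and 1813 counts, a ratio of 1785 with an interval of 320.0 to 70550. For both genes d8 replicate 2 was the higher library.

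Among the 10 largest falls were those of the prolactin family genes *Prl2c2*, from 156 and 284 to 1 and 0 counts, and *Prl2c3*, from 597 and 1482 to 17 and 4 counts (log2 −6.76, edgeR adjusted p = 0.0260), near-identical copies whose reads the counting could have split. *Hhip*, an inhibitor of hedgehog ligands, fell from 68 and 198 to 10 and 5 counts (log2 −4.26, edgeR adjusted p = 0.0263). *Pfkfb1*, which sets fructose 2,6-bisphosphate, fell from 49 and 60 to 5 and 5 counts (log2 −3.56, edgeR adjusted p = 0.0223). *Car6*, a secreted carbonic anhydrase, and *Avil*, an actin-severing protein, were uneven at d0, with 386 and 27 counts and 880 and 82 counts before 2 and 1 and 28 and 20 counts at d8. The other 4 were *Sspo*, from 50 and 36 to 1 and 3 counts (log2 −4.48, edgeR adjusted p = 0.0247), *Clec5a*, from 16 and 16 to 2 and 0, the pseudogene *Rps2-ps13*, from 186 and 188 to 27 and 12 (log2 −3.44, edgeR adjusted p = 0.0213), and *Styk1*, from 72 and 23 to 5 and 5 (log2 −3.40, edgeR adjusted p = 0.0444). The calls of *Car6* and *Styk1* were lost with the replicate number as a block in the model.

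Whether the time course differed between genotypes was tested as the difference of the d8 against d0 changes, AMPK-KO minus WT. No gene passed (0% in each direction) by edgeR's quasi-likelihood test, with 729 genes at an unadjusted p under 0.05, while DESeq2 called 27 higher and 33 lower. Among the muscle genes the difference was 2.46 for *Myod1* and 3.94 for *Myog* (edgeR adjusted p = 0.876 for each), with the larger rise in AMPK-KO cells, which started from the lower d0 counts given above. For *Igfbp5* the difference was 2.02 (edgeR adjusted p = 0.845). For *Ifit1* it was 8.00 (edgeR adjusted p = 0.892).

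The lowest p-values of the difference were those of *Nos1*, *Kcnj12* and *Shroom3*, in that order, named after their values were seen. *Nos1*, the neuronal nitric oxide synthase that muscle fibres carry at the dystrophin complex, had 29 and 34 counts at d0 and 34 and 30 at d8 in AMPK-KO cells, and 13 and 13 against 468 and 1154 counts in WT cells (difference −6.03, edgeR adjusted p = 0.196). *Kcnj12*, an inward rectifier potassium channel, was the gene called in opposite directions. It fell from 28 and 22 to 10 and 6 counts in AMPK-KO cells (log2 −1.80, SE 0.420, edgeR adjusted p = 0.0426) and rose from 25 and 19 to 158 and 150 counts in WT cells (log2 2.81, edgeR adjusted p = 0.0143), with a difference of −4.61 (edgeR adjusted p = 0.545). *Shroom3*, an actin-binding shape regulator, held 9 and 10 counts at d0 and 14 and 11 at d8 in AMPK-KO cells against 38 and 13, then 585 and 669 counts in WT cells (edgeR adjusted p = 0.845). For each of these 3 genes both AMPK-KO d8 libraries held fewer counts than either WT d8 library.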

How the data were processed

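Total RNA depleted of ribosomal RNA was read from both ends. The authors trimmed the reads (Trim Galore 0.4.5), aligned them to GRCm38 (STAR 2.5.3a) and counted them per gene with featureCounts 1.5.3, and they deposited raw counts without normalization. Strand setting and handling of reads with several alignments are not given in the sources used here, so antisense, overlapping and near-identical genes are uncertain. Gene names and exon lengths came from GENCODE M21, which held 49326 of 49585 identifiers.

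The 8 WT and AMPK-KO libraries were fitted with edgeR 4.0.16 in R 4.3.3 (filterByExpr, TMM, glmQLFit, glmQLFTest) as 4 groups with 4 residual degrees of freedom and a common biological coefficient of variation of 0.281. For 1 gene, exact permutation of 2 libraries against 2 gives no two-sided p below 0.33, and the model's p-values measure only the spread between these libraries. TPM and CPM were computed from the counts. A gene absent at d0 was set at 3 counts per library for a lower bound. Intervals and floors cover counting error only. The model was tested on simulated data. DESeq2 1.42.0 served as an alternative, beside other normalizations, filters, a replicate block and each library left out.

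Members and the 43 gene lists were chosen with earlier results of these data known. Genes were named from those the study edited or measured, the 10 largest rises and 10 largest falls among called genes, per list up to 3 with the smallest adjusted p and up to 2 with the highest TPM, and the genes furthest apart between the d8 libraries; *Kcnj12*, *Nos1*, *Shroom3*, *Slc2a3*, *Selp* and other list members named by count were added after their values were seen. Promoters came from RefSeq (GRCm38.p6). The TET2 knock-in count table was not used here.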

Additional observations from a re-analysis of the deposited data

How the results depend on the processing

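Calls rested on 2 libraries per group. Leaving out 1 library at a time left 1 to stand for its group, assumed to vary like the others. The number of genes then ran from 0 to 893 higher and 0 to 882 lower at d8, and from 0 to 6 for the difference between genotypes. Genes called ran from 0 to 12 of the sarcomeric myosins, 0 to 23 of the thin filament list, 0 to 30 of the mitosis list, 0 to 31 of the DNA replication list and 0 to 28 of the interferon-stimulated genes, whose median ran from 1.47 to 5.80. The sarcomeric myosin, thin filament, mitosis and DNA replication medians ran from 5.94 to 9.32, 4.73 to 7.04, −3.41 to −2.21 and −2.54 to −1.83. Every count of 0 higher came without an AMPK-KO d0 library.

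DESeq2 called 1342 genes higher, 1190 lower and 60 for the difference, and no filter on low counts gave 1717, 1322 and 449. Of the interferon-stimulated genes DESeq2 called 27 and the fit without a filter 30. With only the 4 AMPK-KO libraries 376 rose and 412 fell, and 4 sarcomeric myosins, 12 thin filament genes and 0 interferon-stimulated genes were called. At least 10 counts in every AMPK-KO library left 3 myosins and 9 thin filament genes called, with a median of 3.99 for the latter, since genes absent at d0 are no longer tested. Between the d8 libraries, 873 and 514 genes were at least 2-fold higher in replicates 1 and 2, 109 and 91 at least 8-fold, and 1445 and 992 at least 4-fold without the filter. The other normalizations and the exclusion of mitochondrial and abundant noncoding RNAs kept these counts within 1.5 times.

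Replicate numbers are shared by the groups, but no label ties them to a batch. Deviations of same-numbered libraries correlated at 0.0975 to 0.290 between groups, and with a replicate block 976 genes rose, 878 fell and 0 differed between genotypes. Of 122 called genes tracked across settings, the block kept 114 and lost *Isg15*, *Ifi27l2a*, *Igtp*, *Irf7*, *Prkag3*, *Car6*, *Styk1* and *Cd36* (edgeR adjusted p = 0.0533 to 0.0719). The block newly called 8 of the other tracked genes. Among the 163 genes tracked, called or not, the sign changed only with a library left out. The log2 changes then ran from −0.12 to 0.27 for *Tet1*, −2.33 to 3.06 for *Pax7* (negative without AMPK-KO d0 replicate 1 or d8 replicate 2), −0.25 to 1.92 for *Eif2ak2* and −0.081 to 2.11 for *Tlr3* (both negative without d8 replicate 1), −0.020 to 0.56 for *Cd14* and −12.12 to 0.071 for *Kit* (lowest without d8 replicate 1, highest without d8 replicate 2). The cause of these dependences was not tested.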

Other observations

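Other lists are set beside all genes tested, of which 4.81% rose and 4.95% fell between d0 and d8 in AMPK-KO cells. The Notch, BMP, p53 target and ER stress lists below each held fewer calls with either d8 library alone. Relative to d0 their medians were 0.39, 0.79, 0.61 and 0.32 in d8 replicate 1. In d8 replicate 2 they were 0.23, 0.11, 0.32 and 0.01. In the Notch list 2 of 15 genes rose (13.3%): *Hes6*, which favours differentiation, from 481 and 943 to 2302 and 1818 counts (log2 1.40, edgeR adjusted p = 0.0295) and the ligand *Dll1* from 66 and 121 to 350 and 282 counts (log2 1.62, edgeR adjusted p = 0.0370). In the BMP list 3 of 19 rose (15.8%): the antagonist *Chrd* from 79 and 54 to 575 and 425 counts (log2 2.73, edgeR adjusted p = 0.0217) and the receptors *Bmpr1a* and *Bmpr2* by 0.78 each. Among the p53 targets 4 of 18 (22.2%) rose (*Btg2*, *Cdkn1a*, *Eda2r* and *Fas*) and 2 fell (*Bax* and *Zmat3*), with *Fas*, the death receptor, going from 47 and 30 to 630 and 321 counts (log2 3.42, edgeR adjusted p = 0.0291) and *Bax*, a pore-forming death protein, from 2196 and 2083 to 1339 and 1238 counts (log2 −0.89, edgeR adjusted p = 0.0254).

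Of 12 satellite cell genes 2 rose (16.7%), *Cxcr4* and *Itga7* (log2 2.46 and 1.65). Relative to d0 the list median was −0.04 in d8 replicate 1 and 0.33 in replicate 2. Of 9 replication-dependent histones tested 2 rose (22.2%), *Hist1h1c* from 579 and 1157 to 6670 and 3053 counts (log2 2.32, edgeR adjusted p = 0.0235) and *Hist1h2bc* from 175 and 260 to 931 and 1088 counts (log2 2.09, edgeR adjusted p = 0.0209). In the lipid list *Scd1* rose (log2 1.28) and *Elovl6* fell (log2 −1.25) among 28 genes. In the list of integrated and ER stress 2 of 24 rose, *Dnajb9* and *Herpud1* (log2 1.13 and 1.64), and *Phgdh* fell. Of 30 lysosome and autophagy genes 2 rose, *Map1lc3a* and *Map1lc3b*, with a list median of 0.31, and of 14 adhesion and Ly6 genes *Itga7* did.

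None of the 11 chemokines and cytokines tested was called. Of the 9 with enough counts 5 were at least 4-fold higher in d8 replicate 1, against 1.73% of the 12544 genes compared. Of the 4 adipocyte markers tested *Cd36* rose (25%), from 0 and 0 to 11 and 127 counts, and the list median was 1.43. Relative to d0 that median was 2.39 in d8 replicate 1 and −0.12 in replicate 2. *Adipoq*, *Cidec* and *Retn* were at 0 in all AMPK-KO libraries. The *Cd36* call was lost with the replicate block. Of the 5 cardiac markers tested *Tnni3* rose (20%), from 4 and 0 to 127 and 47 counts (log2 5.13, edgeR adjusted p = 0.0314), and the list median was −0.003. None of the 5 osteoblast, 2 chondrocyte or 2 endothelial markers tested was called. Outside the lists, *Cyp2e1*, a cytochrome P450, had 2 and 5 counts at d0 and 30 and 2566 at d8, and *Tnr*, the matrix protein tenascin-R, 0 and 0 and then 175 and 2.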
